A study of Mus musculus with 6 samples.

Results

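The genes described here are DNA replication factors, 44 genes chosen by name because their proteins license, start and carry out the copying of chromosomes. Of these, 42 have a row in the deposited table of 13743 rows, and Cdt1 and Gins2 were not analysed here. Messenger RNA was sequenced from mouse embryonic stem cells (ESCs, strain C57/129) of genotype Dgcr8-/-, which lack a protein needed to process microRNA precursors and so make no canonical microRNAs. The 3 groups of 2 libraries were named miR-294 (a microRNA mimic, 50 nM), siMbd2 (an siRNA against Mbd2, 50 nM) and CTR, all taken 48 h after transfection with DharmaFECT1. All groups carried the Dgcr8 deletion, no wild-type cells were included, and the labels do not state what was put into the CTR wells, which the deposited table calls mock. The labels do not name the cell clone or say whether the 2 libraries of a group were separate cultures, so p-values measure only the spread between these libraries, which may be technical.

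Replication is prepared in G1 phase, when the origin recognition complex (Orc1 to Orc6) and Cdc6 place the ring-shaped MCM helicase (Mcm2 to Mcm7) on origins, a step called licensing that geminin (Gmnn) later blocks. At the start of S phase the kinase Cdc7 with its activator Dbf4, together with Cdc45, the GINS complex and Mcm10, switches the helicase on; polymerase alpha-primase lays primers, the sliding clamp Pcna and its loader (the Rfc proteins) hold the main polymerases on the template, and Rpa proteins cover single strands. Fen1 and Lig1 join Okazaki fragments, and the CAF-1 histone chaperone (Chaf1a, Chaf1b) packs the new DNA. Many of these genes are transcribed around the G1 to S transition by E2F factors, and the miR-290 family, to which miR-294 belongs, is known in mouse ESCs for promoting that transition.

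The mature microRNA is shown first because its seed (bases 2 to 8, in capitals) sets which mRNAs it can pair with. The mature arm lies at chr7:3220691-3220712 on the plus strand (RefSeq, GRCm38.p6). The 2 microRNAs below it are encoded inside Mcm7 on the gene's own strand, at chr5:138165574-138165596 and chr5:138165787-138165807, and their shared seed, AAAGUGC, is that of miR-294 shifted by 1 base.
mmu-miR-294-3p: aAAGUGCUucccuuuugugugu
mmu-miR-93-5p: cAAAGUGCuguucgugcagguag
mmu-miR-106b-5p: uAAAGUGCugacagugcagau

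To find sites for miR-294, the 3' UTR with the greatest annotated length was taken for each gene (GENCODE on GRCm38, which is mm10) and searched for AGCACTTA (8 bases), AGCACTT and GCACTTA (7 bases each). None of the 42 replication factors held the 8-base match, against 3.70% of 10788 tested genes with a UTR. A 7-base match was found in 8 of 42 (19.0%), and some match in 20.9% of the tested genes. Orc4 and Pola1, which fell with miR-294 by the test described further on, each hold a GCACTTA match at chr2:48905303-48905309 and chrX:93305158-93305164, both read from the minus strand. Cdc6 and Rfc2, which rose, hold an AGCACTT match at chr11:98921443-98921449 and chr5:134598544-134598550 on the plus strand, and these 2 stretches share 24 of 29 letters. The search did not set apart repeated elements of the genome, and the source of this likeness was not tested. The match is in capitals.
Orc4: atgggaaatttGCACTTAgtatgttttga
Pola1: ttagaaagtttGCACTTActaaatacaaa
Cdc6: cctgtgatcccAGCACTTgggaaatagag
Rfc2: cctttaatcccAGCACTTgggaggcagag
The other genes with a match were Mcm6 and Rpa2, which also rose, and Gins3 and Chaf1a (2 matches), which did not pass the test. Of the 8 genes, 4 rose and 2 fell with miR-294. Of all 2256 tested genes with a match, 364 rose and 1155 fell. That larger group includes 399 genes with the 8-base match (46 rose, 244 fell), which no replication factor holds. Of the 34 replication factors without a match, 16 rose and 3 fell. Of the 8532 tested genes without a match, 2626 rose and 2849 fell. Among genes without a match, the median 3' UTR length was 381 bases for the replication factors and 903 for all tested genes.

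Promoter windows from 250 bases before to 50 bases after the start site were available for 35 of the 42 genes (RefSeq, GRCm38.p6) and were searched on both strands for the E2F words TTTGGCGC, TTTCCCGC, TTTGCCGC and TTTCGCGC. At least 1 of the 4 words was present in 13 of 35 (37.1%), against 5.04% of 8657 tested genes with a window and 2.26% of all 32851 windows. CCAAT was present in 62.9% of the replication factors' windows and 43.6% of the tested genes' windows, and CACGTG, the E-box word that Myc binds, in 20.0% and 12.2%. The stretches below are from genes that rose (Mcm5, Mcm6, Orc1, Cdc6) and genes that fell (Pola1, Rfc3) with miR-294. Each is read 5′ to 3′ on the gene's strand with the word, or its reverse complement, in capitals; in Mcm5 and Mcm6 the capitals hold 2 overlapping words. They lie at chr8:75109347-75109376 (plus), chr1:128359795-128359824 (minus), chr4:108579416-108579445 (plus), chr11:98908002-98908031 (plus), chrX:93632275-93632304 (minus) and chr5:151651209-151651238 (minus), in the order given.
Mcm5: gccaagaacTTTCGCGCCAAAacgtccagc
Mcm6: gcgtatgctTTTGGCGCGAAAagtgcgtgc
Orc1: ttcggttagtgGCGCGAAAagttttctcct
Cdc6: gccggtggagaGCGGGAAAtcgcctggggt
Pola1: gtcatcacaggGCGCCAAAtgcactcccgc
Rfc3: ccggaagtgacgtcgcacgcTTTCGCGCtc
By the call with miR-294 against CTR, an E2F word stood in the window of 6 of 17 genes that rose, 2 of 4 that fell and 5 of 14 that did not pass the test. A match describes the letters of the window and says nothing of binding.

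Levels were deposited as RPKM, read numbers divided by the length of the transcript and by the size of the library, which allows genes to be compared per length. Summed RPKM per library was 493079 and 488568 in miR-294, 470333 and 464663 in siMbd2, and 450520 and 429460 in CTR. These sums did not overlap between groups, so scaling and treatment go together in these libraries. Since RPKM carry no read counts, the depth and the counting error are unknown. The median absolute log2 difference between the 2 libraries of a group over the replication factors was 0.048 in miR-294, 0.046 in siMbd2 and 0.108 in CTR, so the CTR pair was the widest. Mbd2, the siRNA's target, stood at 7.33 and 6.34 RPKM in siMbd2, 11.3 and 12.3 RPKM in miR-294, and 26.8 and 27.9 RPKM in CTR. All 10 ESC markers (Pou5f1 and Nanog among them) were listed, with summed RPKM of 5828 and 5859 in miR-294, 7346 and 6988 in siMbd2, and 6473 and 6050.2 in CTR. Dppa5a held the largest share of these sums; with miR-294 against CTR 5 of the 10 rose (Pou5f1 by log2 0.52) and 3 fell (Nanog -0.80, Sox2 -0.51, Dppa5a -0.36) by the test described below, and with siMbd2 4 rose and 2 fell. Of 10 feeder fibroblast markers 5 were listed, summing to at most 7.09 RPKM in any library, and of 10 markers of differentiated derivatives 9 were listed, summing to 40.6 and 42.0 RPKM in miR-294, 52.5 and 51.5 RPKM in siMbd2, and 46.0 and 42.8 RPKM in CTR. Krt18 held the largest share of that sum. Of the 5 derivative markers that could be tested, Krt18 rose with miR-294 (log2 0.53) and 4 fell (Sox1 -1.12, Pax6 -1.05, Gata4 -0.95, Nes -0.31), and 2 rose and 2 fell with siMbd2; the part of these markers in the results below was not tested.

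The replication factors were abundant mRNAs. Their median level over the 6 libraries was 38.2 RPKM, against 11.7 RPKM for all tested genes. Mcm7 (208 RPKM) and Pcna (170 RPKM) had the highest mean levels, followed by Mcm3 (119 RPKM) and Rpa1 (110 RPKM); Gins3 (4.78 RPKM), Pole2 (10.7 RPKM) and the kinase gene Cdc7 (11.7 RPKM) had the lowest. Subunits that act in 1 complex were not at equal levels, and the highest MCM subunit, Mcm7, stood 3.36-fold above the lowest, Mcm4. Together the 42 genes took 0.486% and 0.487% of summed RPKM in the miR-294 libraries, 0.451% and 0.450% in siMbd2, and 0.466% and 0.473% in CTR.

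With miR-294, replication factors were more often higher than lower relative to CTR. Tests were made on log2(RPKM + 1) with limma over the 11428 genes that averaged 1 RPKM or more, and "rose" and "fell" mean a Benjamini-Hochberg adjusted p under 0.05. By this test 20 of the 42 genes rose (47.6%, against 27.7% of all tested genes), 5 fell (11.9%, against 36.8%) and 17 did not pass. The median log2 change was 0.17, against -0.08 over all tested genes. The largest increases were in Orc1, Dbf4, Mcm5, Rfc5 and Mcm10, and the 5 genes that fell were Orc4, Pola1, Rfc3, Rpa3 and Gins1. In 25 genes both miR-294 libraries lay above both CTR libraries and in 8 both lay below, against 35% and 46% of all tested genes. Without CTR replicate 2 the median was 0.15, against -0.10 over all tested genes, and without miR-294 replicate 1 it was 0.20, against -0.08. The number of genes called differed between these runs, both among the replication factors and among all tested genes.

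The balance of these calls depended on how libraries were scaled. Rescaling each library to the same summed RPKM gave 13 higher and 10 lower in place of 20 and 5. Of all tested genes, 19.6% were then higher and 49.4% lower, in place of 27.7% and 36.8%. The median of all tested genes moved to -0.21 and that of the replication factors to 0.02. Quantile normalization gave 16 higher and 6 lower, against 31.9% and 30.4% of all tested genes. Median-of-ratios scaling gave 25 higher and 4 lower, against 32.8% and 32.4%. The replication factors' median stood 0.25 above that of all tested genes as deposited, 0.25 under median-of-ratios scaling, 0.23 with equal sums and 0.08 once quantile-normalized. Exact permutation tests of 2 libraries against 2 cannot give a p below 0.3333, so each call rests on the spread that limma shares across genes. In bulk RNA, a change in the share of cells in S phase and a change in the RNA of each cell cannot be told apart. Of 24 other S-phase genes 10 rose and 5 fell (41.7% and 20.8%, against 27.7% and 36.8% of all tested genes), summing to 1801 and 1794 RPKM in miR-294 and 1386 and 1403 RPKM in CTR. Nasp held the largest share of this sum and of its rise, at a mean of 388 RPKM in miR-294 and 204 RPKM in CTR. Of 20 G2/M genes 9 rose and 4 fell (45% and 20%), summing to 1458 and 1442 RPKM in miR-294 and 1208 and 1215 RPKM in CTR. Cdc20 (means of 196 RPKM in miR-294 and 113 RPKM in CTR) and Ccnb1 (166 and 87.4 RPKM) rose most in RPKM. The sums over all genes of a library were also higher in miR-294 than in CTR. The part of these S-phase and G2/M genes in the result was not tested.

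With siMbd2 the replication factors stayed near the background of all genes. Relative to CTR, 7 of 42 rose (16.7%, against 19.5% of all tested genes), 5 fell (11.9%, against 14.9%) and 30 did not pass the test; the median log2 change was 0.04, against 0.02 over all tested genes. In 17 genes both siMbd2 libraries lay above both CTR libraries and in 11 both lay below, against 37% and 30.6% of all tested genes. The genes that rose were Rfc5, Gins4, Chaf1b, Chaf1a, Mcm5, Orc1 and Orc6, and those that fell were Orc5, Rpa3, Lig1, Rfc4 and Prim1. Quantile normalization gave 6 higher and 9 lower, against 18% and 16.8% of all tested genes. Equal summed RPKM gave 6 higher and 10 lower, against 14.4% and 22.8% of all tested genes. Without siMbd2 replicate 2 the median log2 change was 0.05, against 0.03 over all tested genes, and without CTR replicate 1 it was 0.06, against 0.05. Without siMbd2 replicate 1 it was 0.04, against 0.02, and without CTR replicate 2 it was 0.01, against 0. The number of genes called differed between these 4 runs, both among the replication factors and among all tested genes.

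The direct comparison of miR-294 with siMbd2 uses no CTR library in its means. Here 19 of 42 were higher with miR-294 (45.2%, against 21.9% of all tested genes) and 5 were lower (11.9%, against 35.5%), and the median log2 difference was 0.14, against -0.08 over all tested genes. Both miR-294 libraries lay above both siMbd2 libraries in 26 genes and below them in 10, against 34.5% and 49.6% of all tested genes. Orc5, Mcm10, Dbf4 and Orc1 had the largest positive differences, and Rfc3 and both CAF-1 genes the largest negative ones. Median-of-ratios scaling gave 25 higher and 3 lower, against 30% and 29.3% of all tested genes. The replication factors' median then stood 0.23 above that of all tested genes, against 0.22 as deposited. Without miR-294 replicate 1 or 2 the medians were 0.17 and 0.15, against -0.09 and -0.07 over all tested genes. Without siMbd2 replicate 1 or 2 they were 0.16 and 0.13, against -0.07 and -0.09. The number of genes called differed between these runs, both among the replication factors and among all tested genes. The 2 comparisons with CTR share their CTR libraries, so their values are set side by side below, gene by gene.

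**Figure D1:**
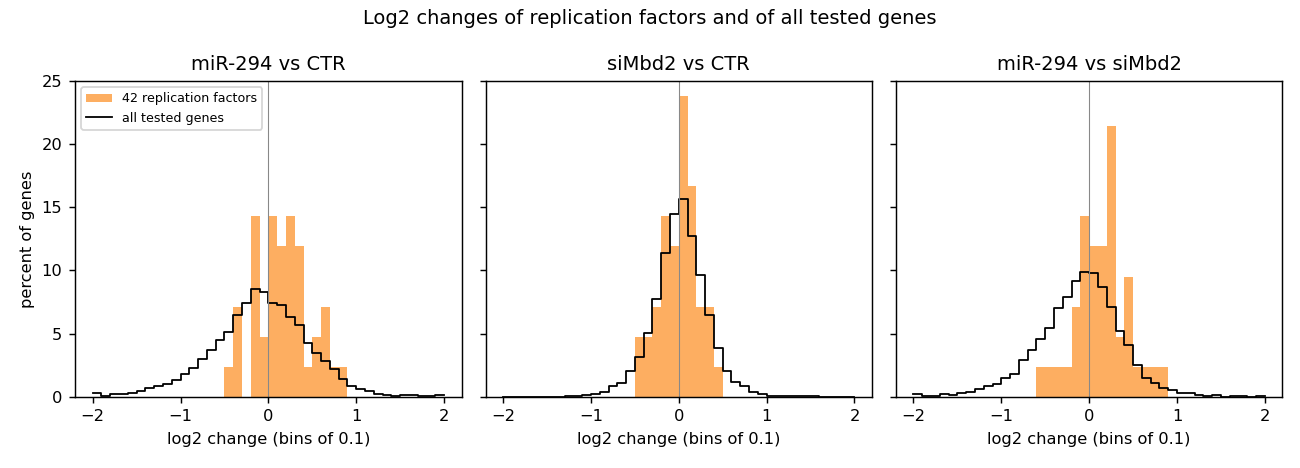
Distribution of log2 changes of the 42 replication factors (orange bars) and of all 11428 tested genes (black line), in percent of genes per bin of 0.1, in 1 panel for each of the 3 comparisons; changes beyond 2 in either direction are counted in the end bins. The bars lie to the right of the line in both comparisons of miR-294 (medians 0.17 and 0.14, against -0.08 for all genes) and around it for siMbd2 vs CTR (0.04, against 0.02).

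**Figure D2:**
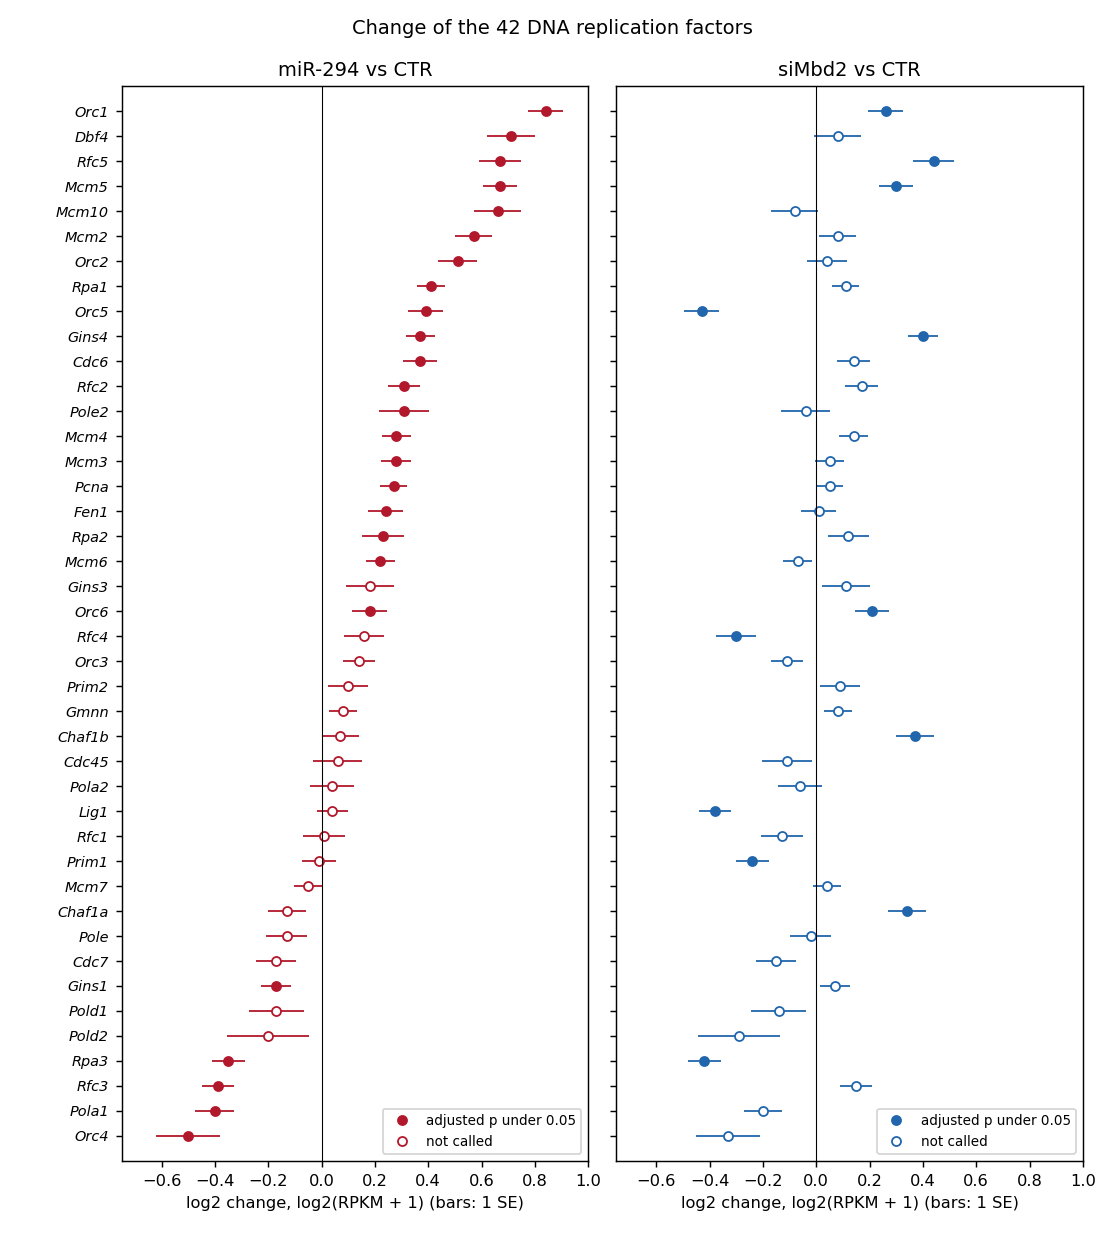
Log2 change on the log2(RPKM + 1) scale of each replication factor, with 1 SE, for miR-294 vs CTR (left) and siMbd2 vs CTR (right), in the order of the miR-294 change; filled points passed an adjusted p of 0.05. Orc1 (0.84) stands at the top and Orc4 (-0.50) at the bottom for miR-294, and filled points number 25 on the left and 12 on the right.

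Of the 6 MCM helicase genes, 5 rose with miR-294 (83.3%, against 27.7% of all tested genes), 1 rose with siMbd2 (16.7%, against 19.5%) and none fell in either comparison. Mcm5 stood at 126 and 120.0 RPKM in miR-294, 95.3 and 94.1 RPKM in siMbd2, and 81.0 and 73.1 RPKM in CTR. The 3 groups of libraries did not overlap, with siMbd2 between the others. Its log2 change was 0.67 with miR-294 (SE 0.0646, adjusted p = 4.31e-05) and 0.30 with siMbd2 (adjusted p = 0.00958), and the difference between them was 0.37 (adjusted p = 0.00135). The siMbd2 call was lost without either siMbd2 library (adjusted p = 0.074 and 0.0714). Mcm2 stood at 115 and 109.9 RPKM in miR-294, 80.5 and 79.0 RPKM in siMbd2, and 79.8 and 70.9 RPKM in CTR. Both miR-294 libraries lay above all others, while siMbd2 overlapped CTR. The log2 change of Mcm2 was 0.57 with miR-294 (SE 0.0678, adjusted p = 0.000126) and 0.08 with siMbd2 (adjusted p = 0.371).

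The other MCM genes moved less. Mcm3, Mcm4 and Mcm6 rose with miR-294 by log2 0.28, 0.28 and 0.22, and had changes of 0.05, 0.14 and -0.07 with siMbd2 that did not pass the test. Under quantile normalization these 3 lost their miR-294 calls (adjusted p = 0.284 for Mcm3, 0.0618 for Mcm4 and 0.481 for Mcm6), with the log2 change still positive. With equal summed RPKM, Mcm4 (adjusted p = 0.0671) and Mcm6 (0.301) did not pass, nor did Mcm6 without miR-294 replicate 1 or 2 (0.064 and 0.0535). Mcm7, the gene that hosts the microRNAs printed above, stood at 205 and 198 RPKM in miR-294, 214 and 213 RPKM in siMbd2, and 213 and 204 RPKM in CTR. Its miR-294 and CTR libraries overlapped, and its log2 change of -0.05 did not pass the test (adjusted p = 0.463). Exons of Mcm7 overlap those of Ap4m1 and Cops6 on the other strand, and the sources used here do not say whether the authors' counting used strand; 13 of the 42 genes share exon bases with another gene in this way or on the same strand.

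The origin recognition complex held both the gene with the largest increase and the gene with the largest decrease with miR-294. Orc1, the ATPase subunit whose level cycles in many mammalian cells, stood at 29.4 and 29.8 RPKM in miR-294, 19.4 and 19.6 RPKM in siMbd2, and 16.6 and 15.6 RPKM in CTR. No 2 groups overlapped. The log2 change of Orc1 was 0.84 with miR-294 (SE 0.0644, adjusted p = 1.41e-05) and 0.26 with siMbd2 (SE 0.0644, adjusted p = 0.0149), and the siMbd2 call was lost without either siMbd2 library (adjusted p = 0.0919 and 0.118). Orc2 stood at 45.1 and 47.4 RPKM in miR-294, 34.2 and 31.8 RPKM in siMbd2, and 30.4 and 34.0 RPKM in CTR. The miR-294 libraries lay above the rest, and siMbd2 overlapped CTR. Orc2 rose by log2 0.51 with miR-294 (SE 0.074, adjusted p = 0.000383); its exons share 1150 bases with Nif3l1 on the other strand, which itself rose by 0.80.

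Orc4 and Orc5 moved apart. Orc4 stood at 19.8 and 23.6 RPKM in miR-294, 25.0 and 23.8 RPKM in siMbd2, and 27.3 and 35.2 RPKM in CTR. Every miR-294 library was below every other, by little, and the CTR pair was wide. Its log2 change with miR-294 was -0.50 (SE 0.121, adjusted p = 0.00654), and it did not pass the test without miR-294 replicate 1 (-0.38, adjusted p = 0.0551). The change with siMbd2 was -0.33 (adjusted p = 0.0632), and Acvr2a, which shares 446 exon bases with Orc4 on the other strand, changed by -0.32 with miR-294. Orc5 stood at 37.2 and 38.0 RPKM in miR-294, 21.3 and 20.6 RPKM in siMbd2, and 27.5 and 29.6 RPKM in CTR. The CTR libraries lay between the other groups with no overlap. Orc5 rose by log2 0.39 with miR-294 (SE 0.0642, adjusted p = 0.000861), and with siMbd2 its log2 change was -0.43 (SE 0.0642, adjusted p = 0.00201). The difference between miR-294 and siMbd2, 0.82 (SE 0.0642, adjusted p = 2.56e-05), was the largest positive one of the 42 genes. Orc6 rose by 0.18 with miR-294 and 0.21 with siMbd2, calls that were lost under quantile normalization (adjusted p = 0.129 and 0.184) and with equal summed RPKM (0.798 and 0.193), and without either library of the treated group (0.136 and 0.166 for miR-294, 0.135 and 0.194 for siMbd2). Orc3 changed by 0.14 and -0.11, neither passing the test.

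**Figure D3:**
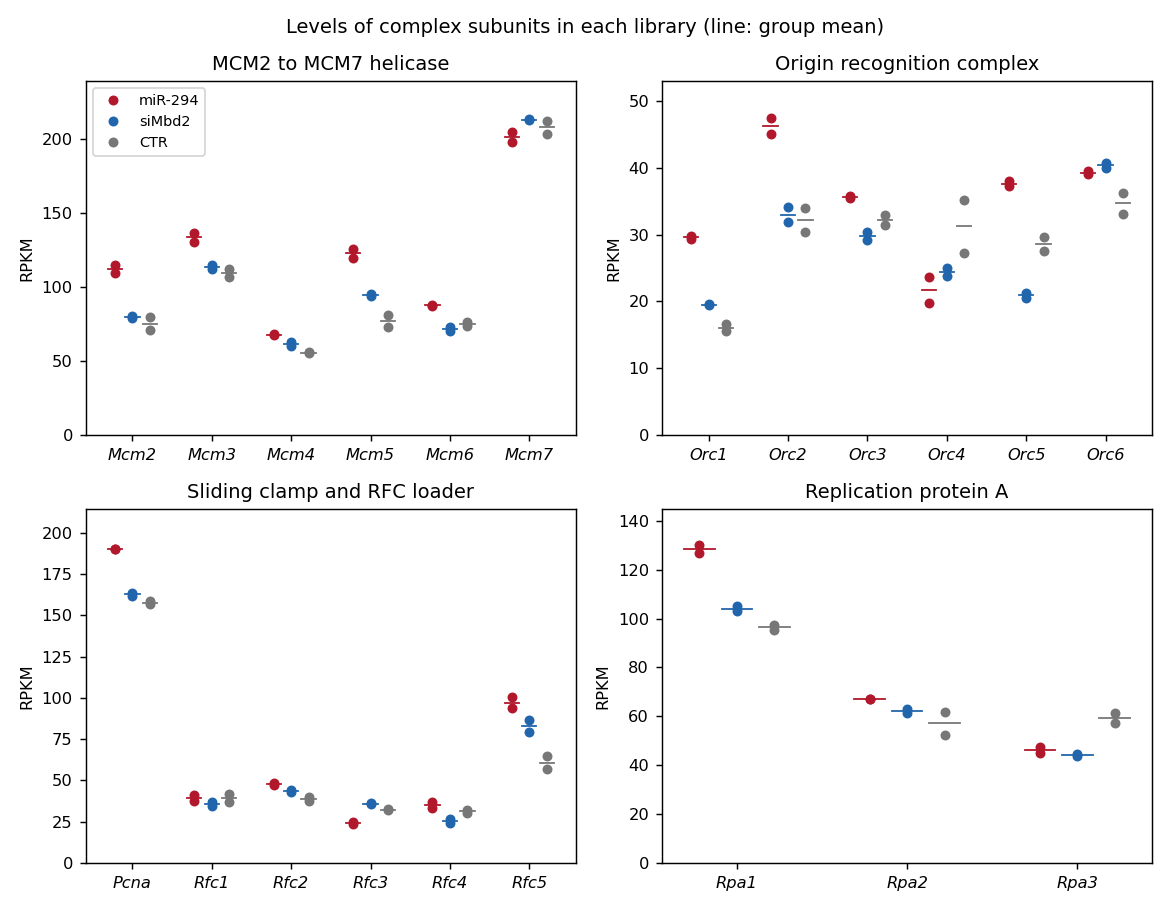
RPKM of each subunit of the MCM helicase, the origin recognition complex, the sliding clamp with its loader, and replication protein A, by library (points) and group mean (lines), for miR-294, siMbd2 and CTR from left to right. Mcm5, Orc1, Rfc5 and Rpa1 stand highest in miR-294, and Orc4 and Rfc3 lowest.

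Of the licensing genes beside ORC, Cdc6, the loader ATPase, stood at 20.7 and 20.9 RPKM in miR-294, 17.6 and 17.4 RPKM in siMbd2, and 15.7 and 15.9 RPKM in CTR. It rose by log2 0.37 with miR-294 (adjusted p = 0.000935), and its change of 0.14 with siMbd2 did not pass the test. Gmnn, the licensing inhibitor, stood at 79.0 and 79.0 RPKM in miR-294, 78.7 and 79.7 RPKM in siMbd2, and 76.0 and 73.7 RPKM in CTR, with a log2 change of 0.08 in each comparison that did not pass the test.

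Among the genes that switch the helicase on, the kinase activator rose and the kinase did not. Dbf4 stood at 81.7 and 85.0 RPKM in miR-294, 54.1 and 52.3 RPKM in siMbd2, and 45.5 and 55.8 RPKM in CTR. The miR-294 libraries lay above all others, and siMbd2 fell within the CTR range. Its log2 change was 0.71 with miR-294 (SE 0.0895, adjusted p = 0.000175) and 0.08 with siMbd2 (adjusted p = 0.543). Cdc7, which encodes the kinase itself, stood at 11.32 and 11.03 RPKM in miR-294, 10.9 and 11.8 RPKM in siMbd2, and 12.9 and 12.5 RPKM in CTR. Both treated groups lay below CTR without overlap, but its changes of -0.17 and -0.15 did not pass the test (adjusted p = 0.0745 and 0.144). Mcm10, which binds the helicase and promotes its activation, stood at 58.9 and 56.7 RPKM in miR-294, 34.8 and 33.8 RPKM in siMbd2, and 39.99 and 32.9 RPKM in CTR. It rose by log2 0.66 with miR-294 (SE 0.088, adjusted p = 0.000251), with a difference of 0.74 from siMbd2 (adjusted p = 0.000196), while siMbd2 lay within the CTR range.

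The GINS genes split. Gins4 stood at 45.9 and 46.5 RPKM in miR-294, 47.4 and 46.7 RPKM in siMbd2, and 35.4 and 35.4 RPKM in CTR. Both treated groups lay above CTR, and it rose by log2 0.37 with miR-294 (adjusted p = 0.000428) and 0.40 with siMbd2 (SE 0.055, adjusted p = 0.00146). Gins1 stood at 42.1 and 40.8 RPKM in miR-294, 50.0 and 48.2 RPKM in siMbd2, and 46.5 and 46.7 RPKM in CTR. Its log2 change with miR-294 was -0.17 (SE 0.0565, adjusted p = 0.0294), which did not pass the test under median-of-ratios scaling (-0.09, adjusted p = 0.191) or without either miR-294 library (adjusted p = 0.0961 and 0.187). Gins3 and Cdc45 changed by 0.18 and 0.06 with miR-294 and by 0.11 and -0.11 with siMbd2, none passing the test.

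Of the 8 polymerase and primase genes, 1 rose and 1 fell with miR-294, against 27.7% and 36.8% of all tested genes. Pola1, the catalytic subunit of polymerase alpha, stood at 16.8 and 17.1 RPKM in miR-294, 20.0 and 19.1 RPKM in siMbd2, and 21.5 and 23.8 RPKM in CTR. The 3 groups did not overlap. Its log2 change was -0.40 with miR-294 (SE 0.0727, adjusted p = 0.00149) and -0.20 with siMbd2 (adjusted p = 0.0641). Prim1, the catalytic subunit of primase, stood at 34.3 and 36.5 RPKM in miR-294, 30.01 and 30.08 RPKM in siMbd2, and 34.7 and 36.6 RPKM in CTR. Its siMbd2 libraries lay below all others (log2 change -0.24, SE 0.0626, adjusted p = 0.0201), a call lost without either siMbd2 library (adjusted p = 0.119 and 0.129). Pole2, the second subunit of polymerase epsilon, rose by 0.31 with miR-294 (adjusted p = 0.0178), but not with equal summed RPKM (0.16, adjusted p = 0.176), without CTR replicate 1 (adjusted p = 0.0564) or without miR-294 replicate 1 (adjusted p = 0.124). Pola2, Prim2, Pold1, Pold2 and Pole did not pass the test in any of the 3 comparisons; the CTR libraries of Pold2, at 72.2 and 51.1 RPKM, were wide apart.

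Pcna, the sliding clamp, stood at 190.1 and 190.3 RPKM in miR-294, 162 and 163 RPKM in siMbd2, and 157 and 159 RPKM in CTR. The miR-294 libraries lay above all others by more than the distance within any pair, and the log2 change was 0.27 (adjusted p = 0.0015). It did not pass the test under quantile normalization (0.01, adjusted p = 0.812) or with equal summed RPKM (0.11, adjusted p = 0.0756), and reads of its processed pseudogenes, Pcna-ps1 and Pcna-ps2, cannot be told apart from it here. The loader's subunits moved in both directions. Rfc5 stood at 93.6 and 100.2 RPKM in miR-294, 86.4 and 79.2 RPKM in siMbd2, and 64.6 and 56.8 RPKM in CTR. Both treated groups lay above CTR, with log2 changes of 0.67 (SE 0.0782, adjusted p = 0.00012) with miR-294 and 0.44 (SE 0.0782, adjusted p = 0.00402) with siMbd2. Rfc5 shares 499 exon bases with Wsb2 on the other strand, whose log2 change was -0.52 with miR-294 and 0.66 with siMbd2.

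Rfc3 stood at 24.9 and 23.8 RPKM in miR-294, 36.3 and 35.5 RPKM in siMbd2, and 32.5 and 31.8 RPKM in CTR. The miR-294 libraries lay below and the siMbd2 libraries above CTR. Its log2 change was -0.39 with miR-294 (SE 0.0601, adjusted p = 0.000566) and 0.15 with siMbd2 (adjusted p = 0.0801), and the difference between them, -0.54 (SE 0.0601, adjusted p = 0.000135), was the largest negative one. Rfc4 stood at 33.5 and 36.7 RPKM in miR-294, 26.4 and 24.2 RPKM in siMbd2, and 30.4 and 32.2 RPKM in CTR. It was highest with miR-294, where its log2 change of 0.16 did not pass the test (adjusted p = 0.083). It was lowest with siMbd2, with a log2 change of -0.30 (SE 0.074, adjusted p = 0.0163), a call lost without siMbd2 replicate 2 (-0.24). The difference between miR-294 and siMbd2 was 0.46 (SE 0.074, adjusted p = 0.000936). Eif4a2, which shares 194 exon bases with Rfc4 on the other strand, changed by -0.50 with siMbd2. Rfc2 rose by 0.31 with miR-294 (adjusted p = 0.00206), and Rfc1 changed by 0.01, which did not pass the test.

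The subunits of replication protein A also moved apart. Rpa1, which makes most of the contacts with single-stranded DNA, stood at 129.9 and 127 RPKM in miR-294, 105 and 103 RPKM in siMbd2, and 97.6 and 95.4 RPKM in CTR, and rose by log2 0.41 with miR-294 (adjusted p = 0.000187). Rpa3, the smallest subunit, stood at 47.6 and 45.2 RPKM in miR-294, 43.9 and 44.4 RPKM in siMbd2, and 57.1 and 61.5 RPKM in CTR. Both treated groups lay below CTR without overlap. Rpa3 changed by log2 -0.35 with miR-294 (SE 0.0622, adjusted p = 0.00128) and -0.42 with siMbd2 (SE 0.0622, adjusted p = 0.00203). Rpa2 rose by 0.23 with miR-294 (adjusted p = 0.028), which did not hold under quantile normalization (adjusted p = 0.262) or with equal summed RPKM (adjusted p = 0.32), or without miR-294 replicate 1 or 2 (0.108 and 0.11) or either siMbd2 replicate (0.0531 for each).

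Lig1, the ligase that seals Okazaki fragments, stood at 89.6 and 84.1 RPKM in miR-294, 66.6 and 63.2 RPKM in siMbd2, and 84.0 and 85.2 RPKM in CTR. The siMbd2 libraries lay below all others, while miR-294 overlapped CTR. Lig1 changed by log2 -0.38 with siMbd2 (SE 0.0589, adjusted p = 0.00243) and 0.04 with miR-294 (adjusted p = 0.598). Fen1, the flap nuclease, rose by 0.24 with miR-294 (adjusted p = 0.0107) and changed by 0.01 with siMbd2. Its miR-294 call was lost with equal summed RPKM (0.09, adjusted p = 0.193) and without miR-294 replicate 1 or 2 (log2 change 0.23 and 0.26). Tmem258, which shares 130 exon bases with Fen1 on the other strand, rose by 0.47 with miR-294 and 0.43 with siMbd2. Both CAF-1 genes rose with siMbd2 and neither with miR-294. Chaf1a stood at 31.3 and 30.8 RPKM in miR-294, 42.4 and 44.4 RPKM in siMbd2, and 36.1 and 32.0 RPKM in CTR, with the siMbd2 libraries above all others. Chaf1b stood at 28.6 and 26.6 RPKM in miR-294, 33.7 and 35.0 RPKM in siMbd2, and 27.4 and 25.2 RPKM in CTR, again with siMbd2 above the rest.

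The log2 changes with siMbd2 were 0.34 for Chaf1a (SE 0.0713, adjusted p = 0.00782) and 0.37 for Chaf1b (SE 0.0699, adjusted p = 0.00512), and both were lost without siMbd2 replicate 2 (adjusted p = 0.0819 and 0.0623). Against siMbd2, the differences with miR-294 were -0.47 (SE 0.0713, adjusted p = 0.000685) for Chaf1a and -0.31 (SE 0.0699, adjusted p = 0.00568) for Chaf1b, and that of Chaf1b was lost without miR-294 replicate 2 (adjusted p = 0.063) and without siMbd2 replicate 2 (adjusted p = 0.0567). Exons of Chaf1a share 4648 bases with Ubxn6 on the other strand, and Ubxn6 rose by 0.42 with siMbd2 (adjusted p = 0.00484), with a change of -0.01 with miR-294. Reads of the 2 genes cannot be told apart without strand.

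**Figure D4:**
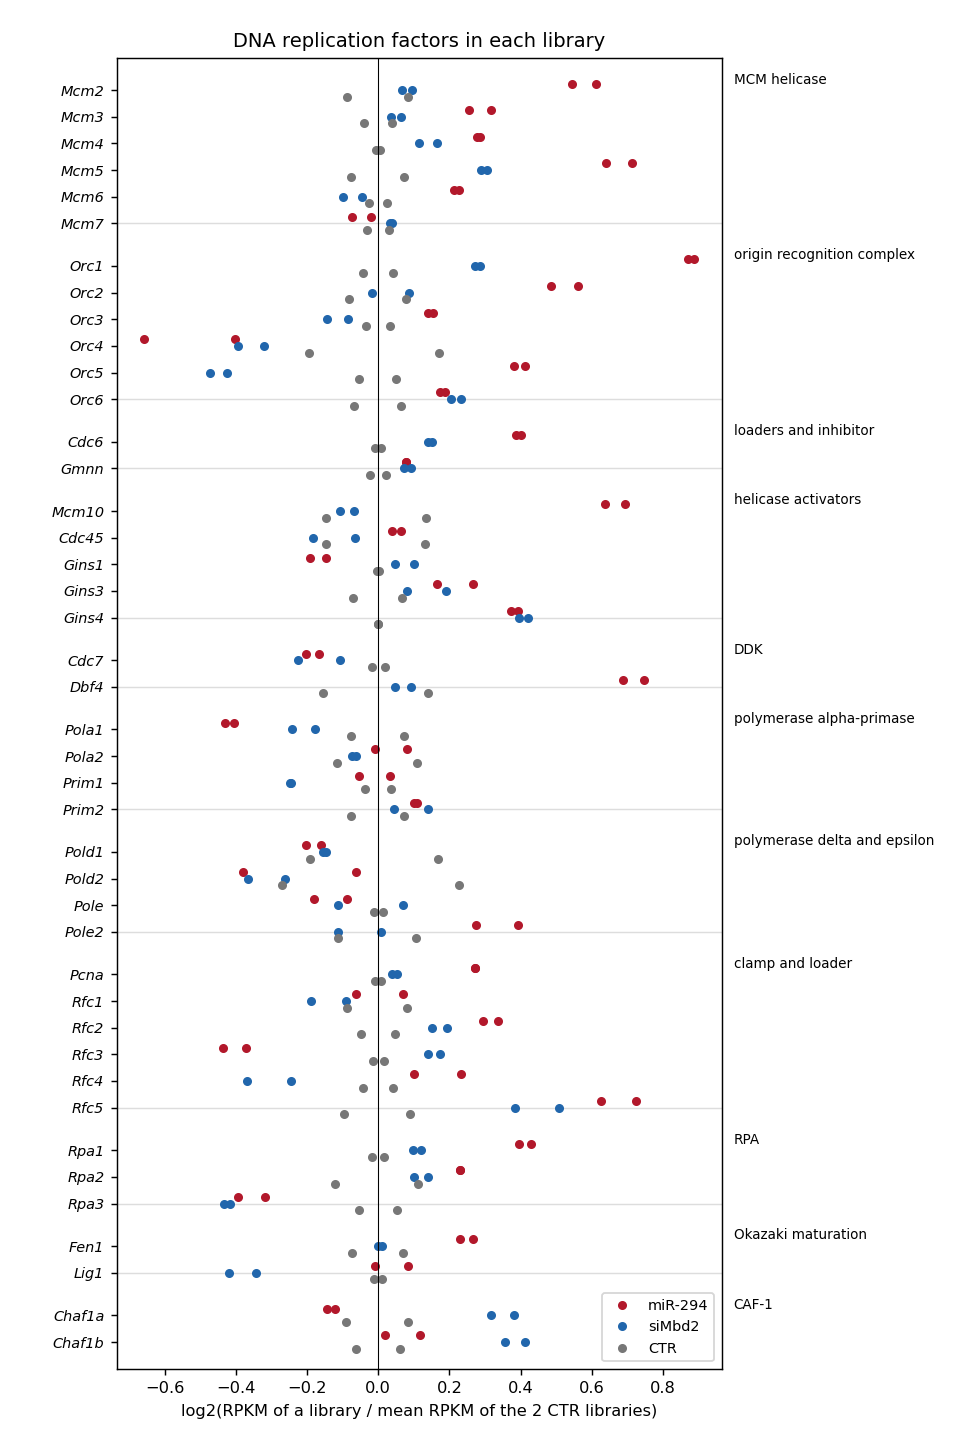
Level of each replication factor in every library as log2 of its RPKM over the mean of the CTR pair, grouped by role, for miR-294 (red), siMbd2 (blue) and CTR (grey). The red points of Orc1, Dbf4, Mcm5, Mcm10 and Rfc5 stand far to the right, those of Orc4, Pola1, Rfc3 and Rpa3 to the left, and the blue points of Chaf1a and Chaf1b to the right of both other groups.

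Ratios between genes of 1 library do not depend on how that library was scaled, so they were used to describe the balance of partners. The pairs were picked after the values of the genes were seen, so a separation of groups was partly set by the choice. No test was made on them. Dbf4 over Cdc7 was 7.22 and 7.71 in miR-294, 4.97 and 4.44 in siMbd2, and 3.54 and 4.45 in CTR. Orc5 over Orc4 was 1.88 and 1.61 in miR-294, 0.851 and 0.865 in siMbd2, and 1.01 and 0.841 in CTR. In both ratios the miR-294 libraries lay above all others and the siMbd2 and CTR libraries overlapped. Rfc5 over Rfc3 was 3.76 and 4.21 in miR-294, 2.38 and 2.23 in siMbd2, and 1.99 and 1.78 in CTR. Rpa1 over Rpa3 was 2.73 and 2.81 in miR-294, 2.39 and 2.32 in siMbd2, and 1.71 and 1.55 in CTR. These 2 ratios, and Gins4 over Gins1 and Mcm5 over Mcm7, were highest in miR-294, intermediate in siMbd2 and lowest in CTR, with no overlap between groups. Chaf1a over Pcna had another order, at 0.165 and 0.162 in miR-294, 0.262 and 0.272 in siMbd2, and 0.231 and 0.202 in CTR, and Chaf1b over Pcna had the same order. Chaf1a over Chaf1b and Lig1 over Fen1 were lower in miR-294 and in siMbd2 than in CTR, without overlap. Pole2 over Pole, Cdc6 over Gmnn and Mcm10 over Cdc45 were higher in miR-294 than in CTR, without overlap.

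**Figure D5:**
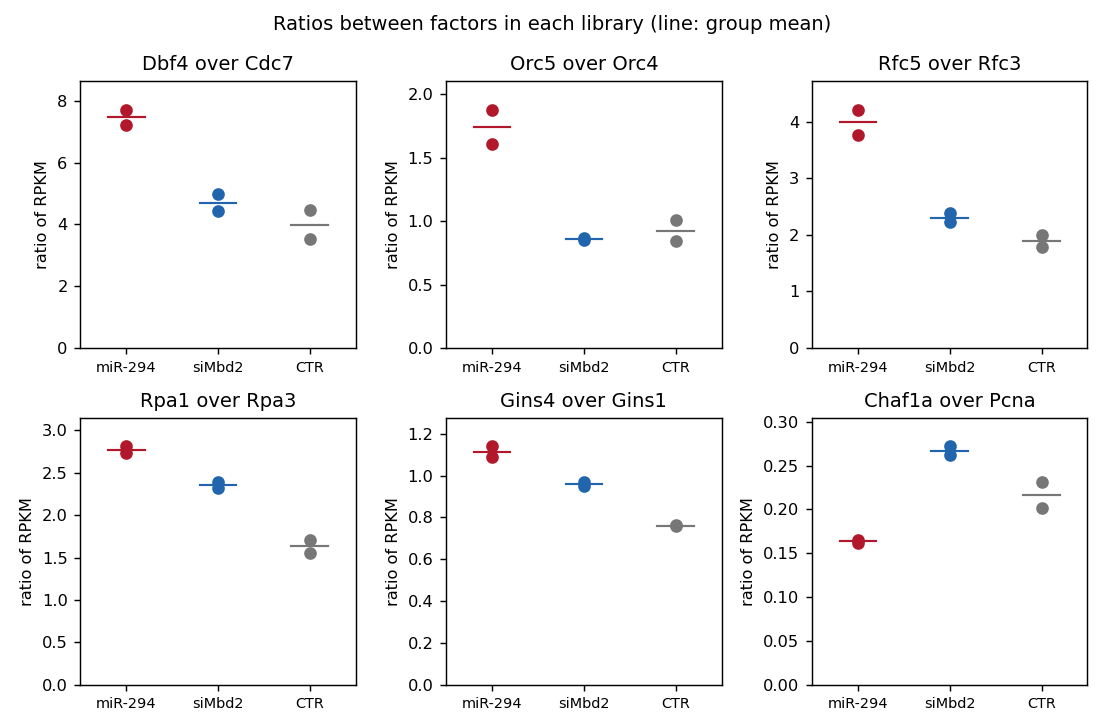
Ratio of RPKM between 2 replication factors in each library (points) with the group mean (line), for 6 pairs, in miR-294, siMbd2 and CTR. The pairs Dbf4 over Cdc7, Orc5 over Orc4, Rfc5 over Rfc3, Rpa1 over Rpa3 and Gins4 over Gins1 are highest in miR-294, and Chaf1a over Pcna is highest in siMbd2 and lowest in miR-294.

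Other replication genes were counted from lists of accessory factors and of S-phase control. Of 36 accessory factors, 14 rose and 9 fell with miR-294 (38.9% and 25.0%, against the same backgrounds of 27.7% and 36.8%), and 3 rose and 6 fell with siMbd2 (8.33% and 16.7%, against 19.5% and 14.9%). Ticrr, which brings Cdc45 to the helicase, rose by log2 0.74 with miR-294 (adjusted p = 3.09e-05) and 0.28 with siMbd2 (adjusted p = 0.0136), and Tipin, of the fork protection complex, rose by 0.60 with miR-294 (adjusted p = 9.21e-05). The clamp-associated factor gene Pclaf (listed as 2810417H13Rik) changed by -0.66 with miR-294 (adjusted p = 0.000153). Asf1b, a histone chaperone that passes histones to CAF-1, stood at 22.7 and 22.9 RPKM in miR-294, 48.7 and 39.8 RPKM in siMbd2, and 35.4 and 28.5 RPKM in CTR. Its 3 groups did not overlap, with a log2 change of -0.46 with miR-294 (adjusted p = 0.00773) and 0.46 with siMbd2 (adjusted p = 0.0175). Pold4 (-0.60, adjusted p = 0.0423), the smallest subunit of polymerase delta, and Atad5 (-0.44, adjusted p = 0.00584), which unloads the clamp, fell with siMbd2. Atad5 fell with miR-294 too (-0.40, adjusted p = 0.00309), a call lost in 1 of 15 alternatives. Mcm8 was higher in the miR-294 than in the siMbd2 libraries (0.55, adjusted p = 0.000392). The Pold4 call was lost in 8 of 14 alternatives (log2 change -0.89 to -0.31, adjusted p up to 0.24). With siMbd2, the call of Ticrr was lost without either siMbd2 library (adjusted p up to 0.0973), that of Atad5 without siMbd2 replicate 2 (0.0656), and that of Asf1b without siMbd2 replicate 1 or CTR replicate 2 (up to 0.13).

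Of 28 genes of licensing and S-phase control, 6 rose and 12 fell with miR-294 (21.4% and 42.9%, against 27.7% and 36.8% of all tested genes). With siMbd2, 5 rose and 8 fell (17.9% and 28.6%, against 19.5% and 14.9%). Ccne1 (cyclin E1, the partner of Cdk2 at the entry into S phase) stood at 107 and 98.7 RPKM in miR-294, 56.3 and 58.2 RPKM in siMbd2, and 46.5 and 45.2 RPKM in CTR, and rose by log2 1.15 and 0.31 (adjusted p = 2.99e-06 and 0.00578). The E2F genes did not move together. E2f4 rose by 0.92 with miR-294 and 0.46 with siMbd2 (adjusted p = 8.78e-06 and 0.00147). E2f7 changed by -0.82 with miR-294 (adjusted p = 7.48e-05) and E2f3 by -0.61 with siMbd2 (adjusted p = 0.0159). E2f1, an activator of replication genes, stood at 13.8 and 13.2 RPKM in miR-294, 17.5 and 17.2 RPKM in siMbd2, and 21.8 and 19.4 RPKM in CTR. It was lowest with miR-294, with log2 changes of -0.57 with miR-294 and -0.24 with siMbd2 (adjusted p = 0.000255 and 0.0434). The siMbd2 call of E2f1 was lost in 7 of 15 alternatives (log2 change -0.32 to -0.15, adjusted p up to 0.214). The siMbd2 calls of E2f3 (without siMbd2 replicate 1 or CTR replicate 2, adjusted p up to 0.111) and Ccne1 (without siMbd2 replicate 2, 0.0702) were also lost. Cul1 fell by 0.36 with siMbd2 (adjusted p = 0.00425; 0.0544 without siMbd2 replicate 2), and Skp2 was lower in the miR-294 than in the siMbd2 libraries (-0.60, adjusted p = 9.92e-05). Myc stood at 26.0 and 27.0 RPKM in miR-294, 5.71 and 6.91 RPKM in siMbd2, and 1.84 and 2.41 RPKM in CTR.

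Among the 24 other S-phase genes, 3 rose and 4 fell with siMbd2 (12.5% and 16.7%, against 19.5% and 14.9% of all tested genes). Cdca7 (0.93), the histone chaperone gene Nasp (0.92) and the chromatin remodeller gene Hells (0.76) had the largest log2 changes with miR-294, all higher (adjusted p = 9.35e-06, 7.79e-06 and 0.000558). With siMbd2, Brca2 (-0.35) and Tyms (-0.33), the thymidylate synthase gene, fell and Casp8ap2 (0.26) rose (adjusted p = 0.0101, 0.00267 and 0.0277). The Casp8ap2 call was lost in 6 of 15 alternatives (adjusted p up to 0.21), and that of Brca2 without either siMbd2 library (adjusted p up to 0.0982). Of the 20 G2/M genes, 6 rose and 5 fell with siMbd2 (30% and 25%, against the same 19.5% and 14.9%). Ccnb1 (0.92), Cdc20 (0.79) and Plk1 (0.61), which act in mitosis, rose with miR-294 (adjusted p = 3.76e-06, 3.25e-05 and 4.81e-05). These genes also rose with siMbd2 (0.23, 0.32 and 0.27), calls that some alternatives lost. Cenpf (-0.48), Nusap1 (-0.43) and Tpx2 (-0.36) fell with siMbd2 (adjusted p = 0.00225, 0.00265 and 0.0025). With miR-294, Nusap1 fell as well (-0.61, adjusted p = 9.86e-05), while Cenpf (-0.01) and Tpx2 (-0.04) did not pass the test.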

How the data were processed

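Libraries were grouped by the sample titles. The authors deposited 1 RPKM value per gene and library, and a fold column per treatment, which per the file headers is a ratio over CTR and lay within 5% plus 0.01 of the ratio of mean RPKM for 42 of 42 genes described here. The submitters' processing notes name CASAVA 1.7, STAR 2.3.0, Cufflinks and mm10; the sources used here do not give the gene annotation, strand setting or depth, and each value is described in the labels as a mean over lanes. Values were analysed as log2(RPKM + 1), which understates changes of low genes. All 3 groups entered 1 linear model in limma 3.58.1 (under R 4.3.3; trended empirical Bayes, 3 residual and 5.38 prior degrees of freedom) over the genes that averaged 1 RPKM or more, with two-sided p-values adjusted by Benjamini-Hochberg over all tested genes of a comparison. The script was tested on simulated data.

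The replication factors and gene lists were chosen with earlier results of these data known, so no test was made over a list. Library values are given, per comparison, for up to 7 called replication factors a direction with the largest changes and no overlap between groups. Orc6 is the exception, for which only log2 changes and lost calls are given. For miR-294 against siMbd2, the difference is printed for only some of these genes. From each other list, up to 3 called genes per comparison with the largest changes were picked, and not all of them are printed. Library values of Cdc6, Gmnn, Mcm7, Cdc7, Pcna and Rpa1 and the ratios between genes were added after their values were seen. Sites, promoter words and sequences were found with pandas 2.3.3 and numpy 2.4.6 under Python 3.11.15, and plots were drawn with matplotlib 3.10.9. Alternatives were another pseudocount, minimum level, scaling, fit, replicate block and each library left out.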

Additional observations from a re-analysis of the deposited data

How the results depend on the processing

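Scaling and single libraries moved the counts most. The pseudocount of 0.1, no minimum level and a minimum of 5 RPKM (which leaves out Gins3) left all 6 counts of replication factors as reported. The background did move with the minimum of 5 RPKM, where 31.3% of all tested genes rose and 35.3% fell in miR-294 vs CTR. Their median was then -0.04, and that of the replication factors stood 0.20 above it. With median-of-ratios scaling the median log2 change was 0.24 in miR-294 vs CTR and 0.24 in miR-294 vs siMbd2, where 3 genes were lower. The medians over all tested genes were then -0.01 and 0.01, and 29.3% of them were lower in miR-294 vs siMbd2. Quantile normalization gave medians of 0.10 in miR-294 vs CTR and -0.03 in siMbd2 vs CTR, where 9 were lower (16.8% of all tested genes). The medians over all tested genes were then 0.02 and 0. With equal summed RPKM, 13 were higher and 10 lower in miR-294 vs CTR (median 0.02), against 19.6% and 49.4% of all tested genes. In siMbd2 vs CTR 10 were lower (median -0.05), against 22.8% of all tested genes, and the median was 0.07 in miR-294 vs siMbd2. The medians over all tested genes were then -0.21, -0.06 and -0.14 in the 3 comparisons. The cause was not tested. Leaving out each library in turn gave 15 to 22 higher, 3 to 8 lower and medians of 0.14 to 0.20 in miR-294 vs CTR; 2 to 13 higher, 3 to 9 lower and medians of 0.01 to 0.06 in siMbd2 vs CTR; and 12 to 23 higher, 2 to 5 lower and medians of 0.13 to 0.17 in miR-294 vs siMbd2. The share of all tested genes that were called also changed between these runs. A group left with 1 library is assumed to vary like the others. Of the genes called, 15 of 25, 5 of 12 and 13 of 24 kept their call in every alternative run, and none was called in the opposite direction. Hells, which did not pass the test in siMbd2 vs CTR (0.06), had -0.15 without CTR replicate 1 (adjusted p = 0.0174) and 0.28, also past the threshold, without CTR replicate 2. With the replicate block the counts were 20 higher and 5 lower, 7 and 6, and 19 and 5. Same-numbered libraries' deviations correlated at 0.119 (miR-294 and CTR), 0.132 (siMbd2 and CTR) and 0.022 (miR-294 and siMbd2) over genes, and with 2 libraries a group the numbers are taken as names only.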
